A study of Sus scrofa with 17 samples.

Results

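Circadian clocks act through transcription factors that sit between the core feedback loop and the genes it controls. The 8 genes described here are such clock output and secondary loop factors: DBP, TEF, HLF, NFIL3, BHLHE40, BHLHE41, CIART and RORA. They were chosen by name, as the rows of the count table whose Ensembl identifiers carry these symbols, and all 8 were found among 31908 genes. Muscle RNA of 17 piglets was sequenced, 6 fed the control diet, 6 fed the UL diet and 5 fed the ULU diet. The piglets were Large White × Duroc males, 28 days old at entry, that adapted for 5 days and received the diets for 2 weeks in individual cages. Control was a cereal and soybean meal diet, UL contained 7% of the green seaweed Ulva lactuca, and ULU contained the same share of seaweed with 0.01% of ulvan lyase, an enzyme that degrades a cell wall polysaccharide of this alga. The tissue was the longissimus, a back muscle rich in fast fibres, and the hour at which each piglet was sampled was not given in the sources used here. For genes that follow the clock, differences by diet and by sampling hour therefore cannot be told apart.

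In mammals, the transcription factors CLOCK and ARNTL (also called BMAL1) activate genes through E-box elements, among them the PER and CRY genes, whose proteins feed back to repress this activation. The same factors drive output regulators of the PAR bZIP family, DBP, TEF and HLF, which pass the rhythm on by activating genes through D-box elements. NFIL3 represses through the same elements. A secondary loop controls ARNTL itself through RORE elements, where RORA activates and the NR1D proteins repress, while BHLHE40, BHLHE41 and CIART are further repressors of activation by CLOCK and ARNTL.

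Each library held between 16137365 and 26546810 reads counted on genes, and levels are given as CPM, the reads of a gene relative to the total of its library after scaling with edgeR's TMM factors. Of all genes, 14203 passed the filter on low counts and were tested, all 8 factors among them. A gene passed the test where its adjusted p-value in edgeR's quasi-likelihood test was under 0.05, and a differentially expressed gene (DEG) also had an absolute log2(fold change) of 1 or more. Reads on mitochondrial genes were 14.05 to 15.9% of those in each control library, against 8.64 to 14.8% for UL and 8.002 to 11.6% for ULU, so that control and ULU libraries did not overlap. All 5 of the 8 skeletal muscle markers that could be matched to a gene were read in every library, and their summed level was 86890 to 140231 CPM in control, 111767 to 150188 CPM in UL and 126910 to 238077 CPM in ULU. Of these muscle markers, 2 passed the test in ULU vs control, and none of the markers of 6 other cell types did in any comparison. In a bulk muscle sample, fewer cells that express a gene and less of its RNA per cell cannot be told apart.

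Per length of transcript, the 8 factors spanned a wide range of levels in this muscle. The mean over the 17 libraries was highest for BHLHE40, at 54.1 TPM (a share of all reads corrected for exon length), and RORA followed at 29.8 TPM. NFIL3 at 12.4 TPM and HLF at 10.5 TPM were next, then TEF at 5.33 TPM and DBP at 4.37 TPM. CIART at 2.29 TPM and BHLHE41 at 2.21 TPM were lowest. BHLHE40 exceeded RORA in 17 of 17 libraries, RORA exceeded NFIL3 in 16, HLF exceeded TEF in 17, TEF exceeded DBP in 13 and DBP exceeded CIART in 17. Neither NFIL3 over HLF nor CIART over BHLHE41 was a settled order, since each held in 9 of 17 libraries. CIART was divided by its full exon length, of which 28.9% is shared with another gene, C1orf54. Reads on shared bases may have gone uncounted, which would lower its TPM. The places of CIART below DBP and beside BHLHE41 are therefore not settled. Across all libraries, the range of TPM of each factor overlapped that of the next in this order.

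In ULU vs control, NFIL3 was the member that passed the test and it was higher with ULU. It was 1 of 8 members that passed, beside 2.98% of all genes tested (1.99% in the higher direction), and the number of members with an unadjusted p-value under 0.05 was 4, beside 18.9% of all genes. The other 3 of these were TEF and CIART, with lower means in ULU, and BHLHE40, with a higher mean. In UL vs control none of the 8 passed in edgeR, as did 0.0% of all genes, with 1 member at an unadjusted p-value under 0.05 (10.8% of all genes) and none called by DESeq2. In ULU vs UL none passed in edgeR either, beside 0.0352% of all genes, with 2 members, NFIL3 and TEF, at an unadjusted p-value under 0.05 (10.8% of all genes). DESeq2 on all libraries gave an adjusted p-value to only 2 of the 8 in that comparison, BHLHE40 and RORA, and called neither. It therefore left NFIL3 and TEF undecided there. UL vs control and ULU vs control share the 6 control libraries, and each pair of the 3 comparisons has a diet in common.

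**Figure D1:**
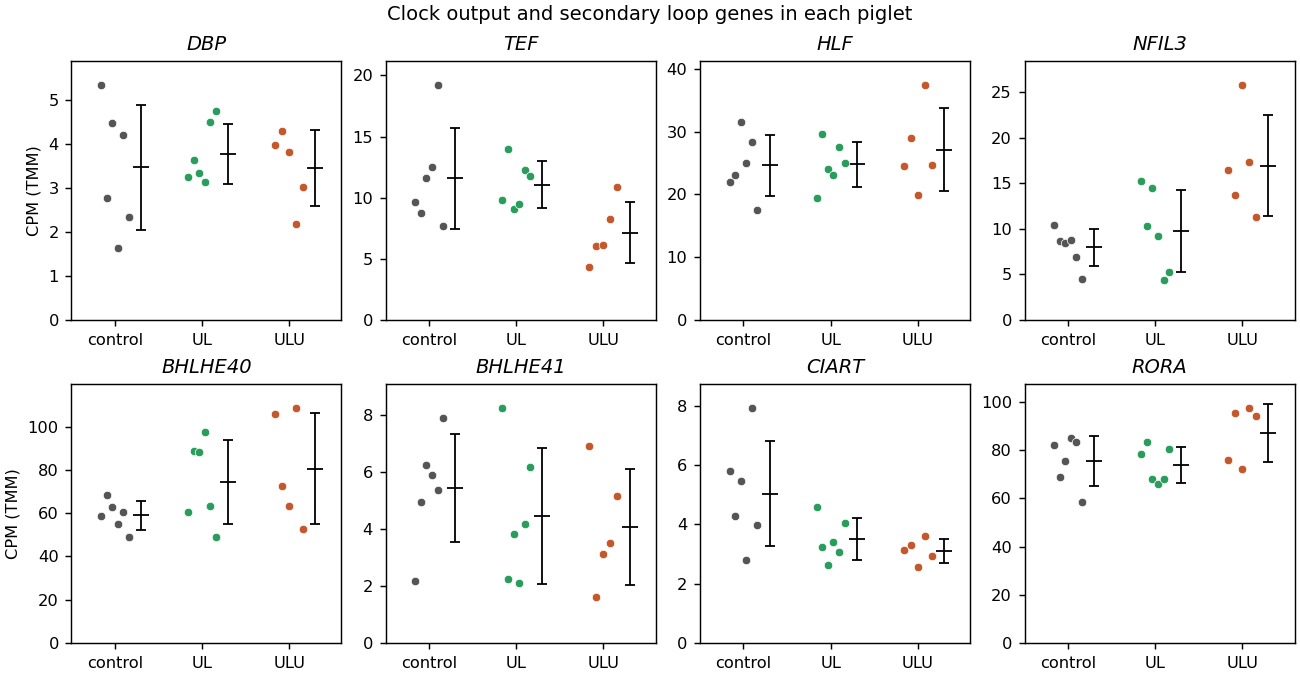
TMM-scaled CPM of the 8 factors in each piglet (points) by diet, with the mean and SD of each diet (bars; 6 control, 6 UL and 5 ULU piglets). The 5 ULU points of NFIL3 lie between 11.3 and 25.9 CPM, above all 6 control points, while the diets overlap for the other 7 genes.

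None of the PAR bZIP activators passed the test in any comparison, and their estimates differed from each other. DBP (ENSSSCG00000003148, chromosome 6, 53986959 to 53993020, minus strand, Sscrofa11.1) encodes the D-box activator that binds the albumin promoter, and only 30 to 93 reads per library were counted on it. In control, DBP ranged from 1.64 to 5.35 CPM with a median of 3.49 CPM, and in UL from 3.13 to 4.74 CPM with a median of 3.49 CPM. The 5 ULU piglets had 3.97, 4.29, 3.81, 2.17 and 3.02 CPM of DBP. The control piglets thus spanned the values of both seaweed diets. The log2(fold change) of DBP was -0.00 in ULU vs control, with a 95% interval of -0.56 to 0.56 (adjusted p = 0.998), and 0.12 in UL vs control, with an interval of -0.41 to 0.65 (adjusted p = 0.906). Its spread was widest in control, with a coefficient of variation of 41.2%, against 18.3% in UL and 24.8% in ULU. A neighbouring gene on the other strand shares 161 bases (8.43%) of the DBP exons, and no strand option was named for the counting.

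TEF (ENSSSCG00000035152, chromosome 5, 7119356 to 7144498, minus strand), named for its activity in thyrotrophs of the pituitary, was the PAR bZIP gene with the lowest ULU values relative to control. TEF ranged from 7.69 to 19.2 CPM in control (median 10.6 CPM) and from 9.07 to 13.99 CPM in UL (median 10.8 CPM). In ULU it was 4.32, 6.04, 6.15, 8.23 and 10.8 CPM. Of the 5 ULU piglets, 3 were below every control piglet and 4 were below every UL piglet, but the diets overlapped. The mean was 11.6 ± 4.17 CPM in control (SD, n = 6), 11.06 ± 1.92 CPM in UL (SD, n = 6) and 7.12 ± 2.50 CPM in ULU (SD, n = 5). In ULU vs control the log2(fold change) was -0.70 ± 0.24 (SE), with an interval of -1.20 to -0.20, and did not pass after adjustment (edgeR, adjusted p = 0.108; two-sided exact permutation test, p = 0.0433). In ULU vs UL it was -0.63 ± 0.24 (SE; edgeR, adjusted p = 0.352; two-sided exact permutation test, p = 0.0260), and in UL vs control -0.07 (adjusted p = 0.948). With the mitochondrial share as a covariate, the log2(fold change) of TEF in ULU vs control was -0.05 (adjusted p = 0.976), a fit in which share and diet cannot be told apart. With library totals in place of TMM it was -0.86 and passed (adjusted p = 0.0444).

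HLF (ENSSSCG00000017604, chromosome 12, 31589337 to 31643596, plus strand), the hepatic leukemia factor, gave the most RNA of the 3 PAR bZIP genes. It ranged from 17.5 to 31.5 CPM in control (median 24.1 CPM), from 19.4 to 29.6 CPM in UL (median 24.5 CPM), and was 24.6, 28.9, 19.8, 37.5 and 24.7 CPM in ULU. ULU piglet 43 exceeded all control and UL piglets, and the other 4 ULU piglets lay among them. The log2(fold change) of HLF was 0.14 in ULU vs control (interval -0.20 to 0.48, adjusted p = 0.684), 0.01 in UL vs control (interval -0.31 to 0.34, adjusted p = 0.989) and 0.13 in ULU vs UL (interval -0.21 to 0.47, adjusted p = 0.844). Of the summed TPM of DBP, TEF and HLF, the median share of HLF was 51.9% in control, 49.8% in UL and 58.6% in ULU, and that of TEF was 27.4%, 27.7% and 19.3% in the same order.

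NFIL3 (ENSSSCG00000009592, chromosome 14, 2588891 to 2603255, minus strand) encodes the bZIP repressor that occupies the same D-box elements as DBP, TEF and HLF. It ranged from 4.54 to 10.4 CPM in control (median 8.58 CPM) and from 4.38 to 15.2 CPM in UL (median 9.77 CPM). In ULU the values were 16.4, 13.8, 25.9, 17.4 and 11.3 CPM. Every ULU piglet was above every control piglet, a pattern in the higher direction that 2.3% of all genes tested showed, and 3 of the 5 were above every UL piglet. The means were 7.96 ± 2.02 CPM in control (SD, n = 6), 9.81 ± 4.51 CPM in UL (SD, n = 6) and 16.9 ± 5.53 CPM in ULU (SD, n = 5). NFIL3 rose 2.13-fold in ULU vs control (interval 1.40 to 3.26), a log2(fold change) of 1.09 ± 0.29 (SE) that made it a DEG (edgeR, adjusted p = 0.0485; two-sided exact permutation test, p = 0.00433, the smallest that 462 splits allow). DEGs made up 0.415% of all genes in this comparison.

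The call for NFIL3 lay close to the threshold. Leaving out each library in turn gave log2(fold changes) between 0.89 and 1.21 and adjusted p-values between 0.0377 and 0.0960, and the call held in 5 of 17 cases, without control 21, UL 27, UL 31, UL 32 or ULU 44. It was lost without control 22 (adjusted p = 0.0852), control 23 (0.0838), control 24 (0.0739), control 25 (0.0545) or control 26 (0.0890). It was also lost without UL 28 (0.0600), UL 29 (0.0520) or UL 30 (0.0590), libraries that enter this comparison through the filter, scaling and spread estimated over all diets. The adjusted p-value was 0.0862 without ULU 40, 0.0699 without ULU 41, 0.0960 without ULU 42, the piglet with the most NFIL3, and 0.0954 without ULU 43. DESeq2 called NFIL3 with an adjusted p-value of 0.000692 on the libraries of control and ULU and 0.00670 on all 17. With library totals in place of TMM the log2(fold change) was 0.93 (adjusted p = 0.0997), and with the mitochondrial share as a covariate it was 0.56 ± 0.46 (SE; adjusted p = 0.723). Control and ULU libraries did not overlap in this share, so that diet and share cannot be told apart in that fit.

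Among the UL piglets, NFIL3 was uneven. UL 27 and UL 29, with 15.2 and 14.5 CPM, were above all control piglets and within the range of ULU, while UL 31 with 4.38 CPM was below every control piglet and UL 32 had 5.26 CPM. The mitochondrial share of these libraries was 8.64% in UL 27, 11.6% in UL 29, 11.2% in UL 31 and 14.8% in UL 32. UL 28 and UL 30, with 10.3 and 9.20 CPM of NFIL3, had shares of 13.1% and 10.5%. Whether NFIL3 follows this share among the UL piglets was not tested. The log2(fold change) of NFIL3 was 0.31 in UL vs control (interval -0.28 to 0.90, adjusted p = 0.748) and 0.79 ± 0.29 (SE) in ULU vs UL (edgeR, adjusted p = 0.339; two-sided exact permutation test, p = 0.0390).

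NFIL3 was also set against its opposing activators at the D-box. The ratio of NFIL3 TPM to the summed TPM of DBP, TEF and HLF was 0.278 to 0.548 in control (median 0.438), 0.204 to 0.965 in UL (median 0.506) and 0.6254 to 1.75 in ULU (median 0.841). Every ULU piglet was above every control piglet in this ratio, while UL piglets extended below and above the control range. The ratio is a description over members chosen with results known, and no test was made of it.

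**Figure D2:**
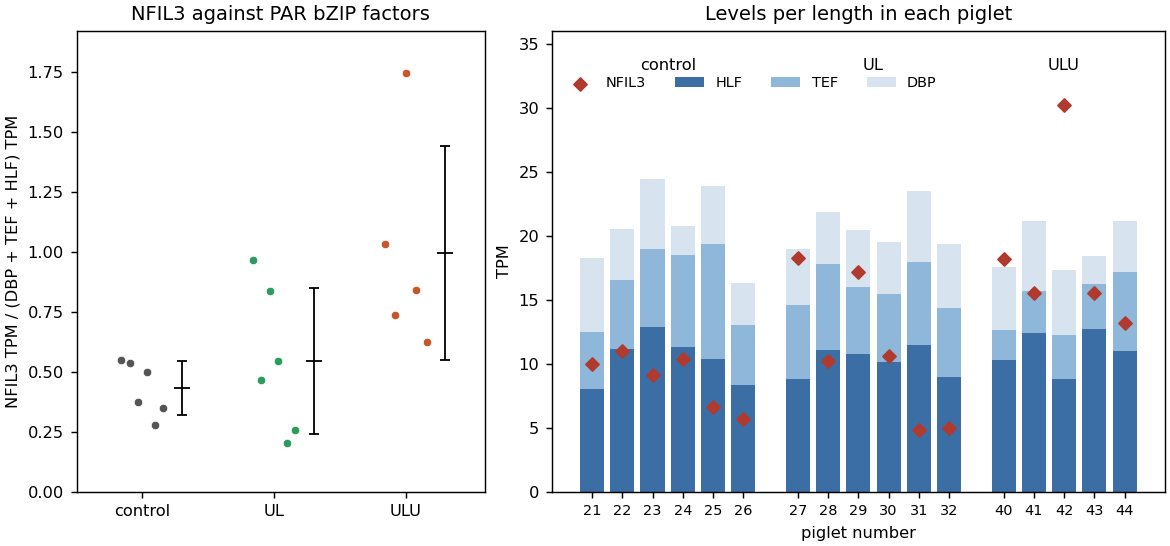
Left, ratio of NFIL3 TPM to the summed TPM of DBP, TEF and HLF in each piglet (points), with the mean and SD of each diet (bars). Right, TPM of HLF, TEF and DBP stacked for each piglet, with NFIL3 as a diamond; NFIL3 lies above the whole stack in ULU 40 and ULU 42 and below it in all control and UL piglets.

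Of the paired E-box repressors, BHLHE40 and BHLHE41, neither passed in any comparison. BHLHE40 (ENSSSCG00000036136, chromosome 13, 61526197 to 61533686, plus strand) is a basic helix-loop-helix repressor that is also induced by growth signals and low oxygen. It ranged from 48.8 to 68.4 CPM in control (median 59.5 CPM), from 48.8 to 97.4 CPM in UL (median 75.7 CPM), and was 106, 72.5, 63.2, 109 and 52.5 CPM in ULU. In each seaweed diet, 3 piglets exceeded all control piglets and the rest lay within or below the control range. The coefficient of variation was 11.3% in control, 26.2% in UL and 31.6% in ULU. For BHLHE40 the log2(fold change) was 0.45 ± 0.19 (SE) in ULU vs control (interval 0.05 to 0.86; edgeR, adjusted p = 0.211; two-sided exact permutation test, p = 0.0909) and 0.34 ± 0.19 (SE) in UL vs control (interval -0.05 to 0.72; edgeR, adjusted p = 0.534). It was 0.11 in ULU vs UL (interval -0.29 to 0.52, adjusted p = 0.886).

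BHLHE41 (ENSSSCG00000028552, chromosome 5, 47686404 to 47692762, plus strand), the paralogue with the same type of DNA-binding domain, had 25 to 165 reads per library. It ranged from 2.16 to 7.88 CPM in control (median 5.63 CPM), from 2.09 to 8.24 CPM in UL (median 3.99 CPM), and was 6.90, 1.62, 3.12, 3.50 and 5.16 CPM in ULU. Its spread within a diet exceeded the distance between the diet means, and its coefficient of variation was 34.8% (control), 53.3% (UL) and 49.9% (ULU). The log2(fold change) was -0.41 in ULU vs control (interval -1.20 to 0.38, adjusted p = 0.598) and -0.29 in UL vs control (interval -1.04 to 0.47, adjusted p = 0.823). The point estimates of the paralogues thus had opposite signs against control, but every interval of BHLHE41 included 0. Per length, BHLHE40 exceeded BHLHE41 in every library, and the median TPM ratio was 17.6 for control, 31.6 for UL and 33.4 for ULU.

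CIART (ENSSSCG00000038374, chromosome 4, 98800930 to 98814553, minus strand) encodes a repressor that binds ARNTL and limits its activity. It ranged from 2.78 to 7.93 CPM in control (median 4.87 CPM) and from 2.62 to 4.58 CPM in UL (median 3.33 CPM), and was 3.14, 3.31, 2.56, 3.60 and 2.92 CPM in ULU. All 6 UL and all 5 ULU piglets were below the control median, but the diets overlapped. Control 24, with 2.78 CPM, lay within the range of ULU, and control 22, control 24 and control 26 lay below UL 27, the highest UL piglet. The mean was 5.04 ± 1.78 CPM in control (SD, n = 6), 3.49 ± 0.704 CPM in UL (SD, n = 6) and 3.11 ± 0.395 CPM in ULU (SD, n = 5). For CIART the log2(fold change) was -0.70 ± 0.23 (SE) in ULU vs control (interval -1.18 to -0.22; edgeR, adjusted p = 0.0957; two-sided exact permutation test, p = 0.0260). In UL vs control it was -0.53 ± 0.22 (SE; interval -0.98 to -0.08; edgeR, adjusted p = 0.387; two-sided exact permutation test, p = 0.0736), and in ULU vs UL -0.17 (interval -0.65 to 0.31, adjusted p = 0.856).

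Whether CIART counts as changed in ULU vs control depended on the tool and the scaling. DESeq2 on all 17 libraries called it (adjusted p = 0.0460), as did edgeR with library totals in place of TMM, with a log2(fold change) of -0.87 (adjusted p = 0.0362). The other 5 alternatives did not call CIART, among them DESeq2 on the control and ULU libraries alone (adjusted p = 0.0817). Nor did any of the 17 fits that left out 1 library. The Ensembl model of CIART shares 1158 exon bases (28.9%) with C1orf54 and 259 (6.46%) with another gene, each on the same strand, and C1orf54 had 0 reads in every library. A read that falls on bases shared by several genes was left uncounted unless an option said otherwise, so that the CIART values rest on the rest of its exons. The RefSeq gene ends at 98809573, so that the Ensembl model reaches beyond it, up to 98814553. Whether reads on that stretch come from CIART was not tested.

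RORA (ENSSSCG00000004576, chromosome 1, 110719190 to 111477703, plus strand), the nuclear receptor that activates ARNTL through RORE elements, had 1194 to 1982 reads per library and a coefficient of variation of only 10.2 to 13.8% within a diet. It ranged from 58.5 to 85.2 CPM in control (median 78.96 CPM), from 65.95 to 83.25 CPM in UL (median 73.2 CPM), and was 76.1, 95.6, 72.3, 97.7 and 94.3 CPM in ULU. ULU 41, ULU 43 and ULU 44 exceeded all control and UL piglets, and ULU 40 and ULU 42 lay among them. The log2(fold change) was 0.21 ± 0.12 (SE) in ULU vs control (interval -0.04 to 0.45; edgeR, adjusted p = 0.358; two-sided exact permutation test, p = 0.113) and 0.24 ± 0.12 (SE) in ULU vs UL (interval -0.01 to 0.48; edgeR, adjusted p = 0.481; two-sided exact permutation test, p = 0.0563). In UL vs control it was -0.03, with an interval of -0.27 to 0.20 that was the narrowest of the 8 members in that comparison (adjusted p = 0.951).

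**Figure D3:**
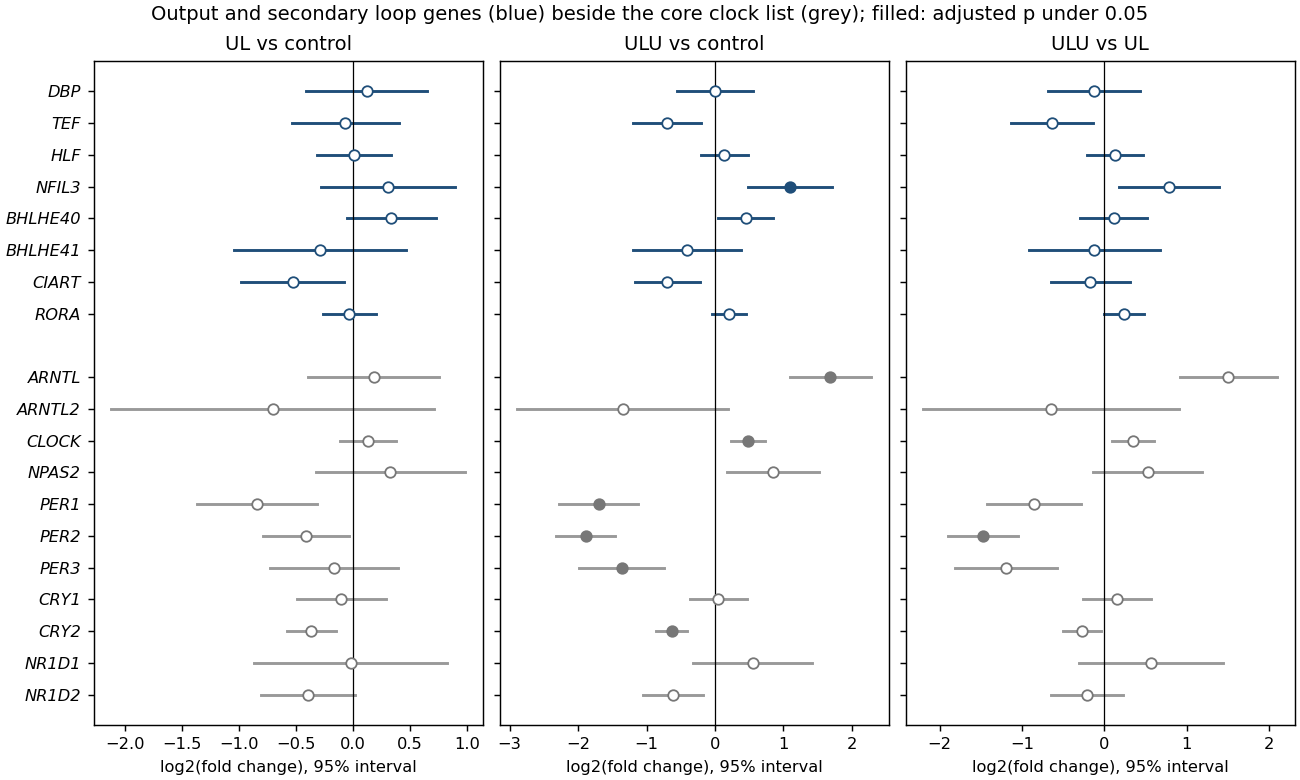
log2(fold change) with its 95% interval (edgeR, all 17 libraries) for the 8 factors (blue) and the 11 core clock genes (grey) in the 3 comparisons; filled points had an adjusted p-value under 0.05. In ULU vs control, NFIL3 is filled among the factors, beside ARNTL, CLOCK, PER1, PER2, PER3 and CRY2 of the core list.

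The core loop on which these factors act is given beside them for reference. Of 11 core clock genes, 6 passed in ULU vs control, beside 2.98% of all genes, 2 higher (ARNTL, with a log2(fold change) of 1.69, and CLOCK, with 0.48) and 4 lower (PER1 with -1.70, PER2 with -1.89, PER3 with -1.36 and CRY2 with -0.63). Their median log2(fold change) was -0.61, against -0.03 for all genes tested, while that of the 8 output and secondary loop factors was 0.07, with 4 above and 4 below 0. The median absolute log2(fold change) in this comparison was 0.85 for the core genes, 0.43 for the 8 factors and 0.24 for all genes. Here 8 of the 11 core genes had an unadjusted p-value under 0.05, beside 18.9% of all genes. In UL vs control none of the 11 passed in edgeR, with 3 at an unadjusted p-value under 0.05 (10.8% of all genes) and CRY2 called by DESeq2 on all libraries. In ULU vs UL only PER2 passed in edgeR (log2(fold change) -1.48), beside 0.0352% of all genes. However, 6 of the 11 had an unadjusted p-value under 0.05 there, beside 10.8% of all genes. Among them were ARNTL (log2(fold change) 1.51; edgeR, adjusted p = 0.0552) and PER3 (-1.20; edgeR, adjusted p = 0.157) in ULU vs UL. DESeq2 on all libraries called CLOCK there (adjusted p = 0.0465) but gave an adjusted p-value to 2 of the 11 genes and none to PER2 (unadjusted p = 4.82e-11). NR1D1 and NR1D2, which oppose RORA at RORE elements, had log2(fold changes) of 0.55 (adjusted p = 0.512) and -0.61 (adjusted p = 0.112) in ULU vs control.

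Among 17 genes that modify clock proteins or cooperate with them, such as casein kinases and ubiquitin ligases, 16 were expressed enough to be tested, since RORB, a paralogue of RORA, was below the filter. None of the 16 passed in any comparison in edgeR, with 2 in UL vs control, 4 in ULU vs control and 3 in ULU vs UL at an unadjusted p-value under 0.05, beside 10.8%, 18.9% and 10.8% of all genes. DESeq2 on all libraries called 0, 1 and 1 of them in the same order, with an adjusted p-value for 14, 16 and 5. Their log2(fold changes) in ULU vs control lay between -0.66 and 0.38, with a median of -0.03.

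Genes described as targets of D-box, E-box or RORE control were looked at as a further list of 18, all of which were tested. In ULU vs control, 3 passed, of which 2 were higher and 1 lower, beside 2.98% of all genes. DESeq2 on all libraries called 4 in this comparison, PPARA in addition (adjusted p = 0.0153). ALAS1, the enzyme that starts haem synthesis and a target of the PAR bZIP factors in liver, rose with a log2(fold change) of 0.40 ± 0.10 (SE, adjusted p = 0.0391). MYOD1, the myogenic transcription factor under control of CLOCK and ARNTL in muscle, rose by 0.86 ± 0.19 (SE, adjusted p = 0.0258). PDK4, a kinase that restrains pyruvate oxidation, fell by 1.67 ± 0.40 (SE, adjusted p = 0.03365) and was the only DEG of the list. Its control values were widely spread, from 5.09 to 38.8 CPM (median 12.1 CPM), and overlapped those of ULU, 3.42 to 7.15 CPM. None passed in UL vs control or in ULU vs UL in edgeR, with 6 and 2 at an unadjusted p-value under 0.05 (10.8% of all genes each time). DESeq2 on all libraries called 1 (PDK4) of the 14 and 0 of the 8 to which it gave an adjusted p-value. The median log2(fold change) of the 18 genes in ULU vs control was -0.01.

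Whether the 8 factors varied together among piglets of the same diet was examined over the 17 libraries, after the diet mean was subtracted from each log2 CPM. Of 28 pairs, 15 had a positive and 13 a negative Pearson's r, from -0.32 to 0.67, and none passed after adjustment over the 28 pairs (smallest adjusted p = 0.303), nor did any with Spearman's rho. The highest r was that of TEF with RORA (r = 0.67, permutation p = 0.0108, adjusted p = 0.303; rho = 0.72, permutation p = 0.00419, adjusted p = 0.117), and it was 0.69 without control 25 and ULU 44, the libraries farthest from the median of TEF. Within the diets, the r of TEF with RORA was 0.73 in control, 0.60 in UL and 0.64 in ULU, positive in each. HLF with RORA followed (r = 0.60, permutation p = 0.0253, adjusted p = 0.354; rho = 0.64, permutation p = 0.0145, adjusted p = 0.203), which dropped to 0.41 without control 26 and ULU 43. TEF with HLF had an r of 0.54 (permutation p = 0.0540, adjusted p = 0.484; rho = 0.59, permutation p = 0.0267, adjusted p = 0.249), and 0.69 without control 25 and ULU 44. These 2 pairs were less even between diets. For HLF with RORA, r was 0.67 in control, 0.12 in UL and 0.79 in ULU. For TEF with HLF it was 0.74, 0.79 and 0.26 in the same order.

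Other pairs were also uneven between diets. DBP with CIART had an r of 0.57 over all libraries (permutation p = 0.0692, adjusted p = 0.484; rho = 0.51, permutation p = 0.0775, adjusted p = 0.542), but 0.88 within control, 0.06 within UL and -0.45 within ULU, and 0.30 without control 21 and control 24. With its PAR bZIP relatives, DBP had an r of 0.00 for TEF (permutation p = 0.993) and 0.07 for HLF (permutation p = 0.811). NFIL3 had an r of -0.08 with DBP, -0.22 with TEF and -0.15 with HLF (permutation p between 0.350 and 0.729 before adjustment, at least 0.793 after). BHLHE40 with BHLHE41 was the most negative pair (r = -0.32, permutation p = 0.266, adjusted p = 0.793), and over the 12 control and UL libraries its r was -0.68 (permutation p = 0.0310, adjusted p = 0.217). Within the diets its r was -0.31 in control, -0.85 in UL and 0.20 in ULU, so that the sign was not the same in each.

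**Figure D4:**
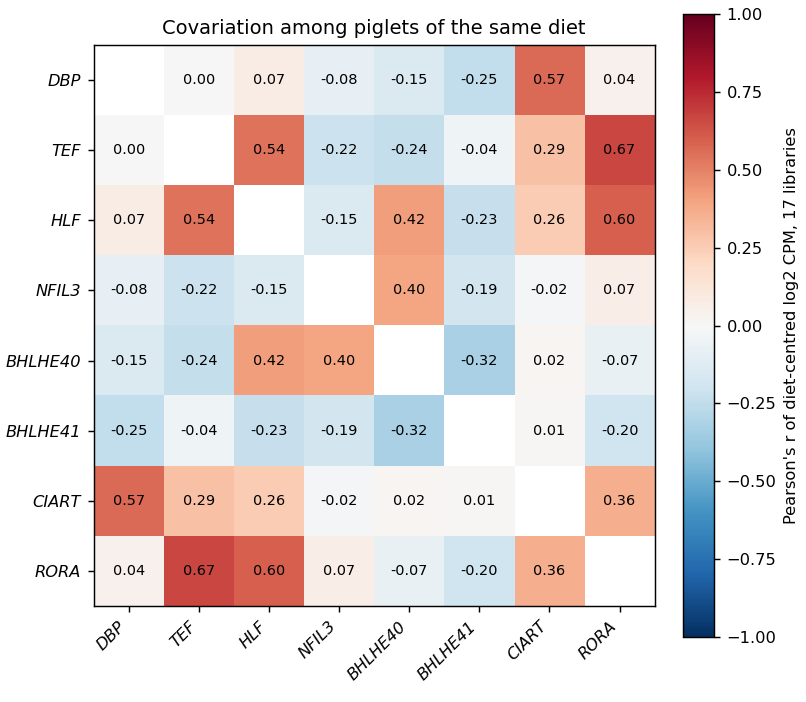
Pearson's r of diet-centred log2 CPM over 17 libraries for each pair of the 8 factors (red, positive; blue, negative). The pairs among TEF, HLF and RORA have values from 0.54 to 0.67, and DBP with CIART has 0.57. NFIL3 and BHLHE41 have values at or below 0.07 with the others, apart from 0.40 for NFIL3 with BHLHE40. No pair passed after adjustment.

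For each factor, the genes with the most similar pattern were sought among 11037 genes with a symbol, by Pearson's r of the same diet-centred values over 17 libraries, as a description without a test. The highest values were those of HLF with CLIP1 (r = 0.90), BHLHE41 with GPAT4 (r = 0.89), CIART with CDPF1 (r = 0.88), TEF with CECR2 (r = 0.85), RORA with APIP (r = 0.85), DBP with FIBP (r = 0.84), BHLHE40 with TMEM184B (r = 0.79) and NFIL3 with RANBP6 (r = 0.76). COMMD3 and SNRPB2 came next for DBP, PANK1 and EHMT2 for TEF, COX11 and BOLL for HLF, and PPP1R11 and KIF3C for NFIL3. TMEM61 and ZNF667 came next for BHLHE40, CCAR1 and FLNC for BHLHE41, UBE2M and COX4I1 for CIART, and PTOV1 and FGD6 for RORA. None of these 24 genes was another of the 8 factors or a gene of the core clock list. All share the same libraries, so that depth and composition of a library enter each of these values.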

How the data were processed

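RNA of the longissimus muscle was sequenced as single reads of 75 nt, 1 library per piglet. After trimming with fastp and alignment with HISAT2, the authors counted reads per gene with featureCounts and deposited these counts without normalization. The header of the counts names featureCounts 2.0.1 and Ensembl annotation 104 of Sscrofa11.1, with no option for strand or for reads on several genes; the submitters' processing notes name Subread 1.5.1. The authors' mean of the counts over all libraries was used only to check the columns, and exon length for TPM. The methods name 6 sequenced piglets per diet, and 5 ULU libraries were analysed here.

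Counts were tested with edgeR 4.0.16 in R 4.3.3 (TMM, its filter by diet, quasi-likelihood F test) in 1 model of all 17 libraries, with Benjamini-Hochberg adjustment over 14203 genes. SEs are the log2(fold change) divided by the square root of F. DESeq2 1.42.0, other scalings, no filter, the mitochondrial share as a covariate and leaving out each library were alternatives. The tests were checked on simulated counts. Exact permutation tests compared mean CPM over 924 splits (UL vs control, smallest p = 0.00216) or 462 (smallest p = 0.00433). Correlations used log2 CPM with a prior count of 2 and 100000 permutations within diets.

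The name table gave symbols for 15029 of 31908 genes (47.1%). Where possible, list genes absent under their symbol were matched by a name in the count table, another name or RefSeq position on the same assembly. The members and lists were chosen with earlier results of these data known. The genes named are the 8 members, list genes that passed in any comparison and the 3 genes most like each member. A few others, such as NR1D1, NR1D2, RORB and C1orf54, were named after their values were seen. No replicate pair differed by sampling noise alone (lowest chi-square per gene 23.6). A count of 3 reads per library, the floor for detection, was 0.113 to 0.186 CPM before scaling, which covers counting error only. The piglets are separate animals, but no batch is given in the labels.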

Additional observations from a re-analysis of the deposited data

How the results depend on the processing

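No paired analysis was possible because the piglet numbers are not shared between the diets. The number of members that passed in ULU vs control, 1 in edgeR on all libraries, was 2 in DESeq2 on all libraries (NFIL3 and CIART), 2 with library totals in place of TMM (TEF and CIART), 0 with the mitochondrial share as a covariate, and 0 to 1 when each library was left out. The cause was not tested. DESeq2 on all libraries also called 1 core clock gene in UL vs control (CRY2), 1 clock modifier in ULU vs control (CSNK2B), 1 in ULU vs UL (CSNK2A1) and 1 clock-controlled output gene in UL vs control (PDK4), where edgeR called 0 each time. It added PPARA in ULU vs control to the 3 output genes that edgeR called, and in ULU vs UL it called CLOCK and gave PER2, the edgeR call, no adjusted p-value. Across the 8 members and 3 comparisons, leaving out libraries kept direction or stayed uncalled in 396 values and lost the call in 12, all of them NFIL3 in ULU vs control. The other alternatives did so in 152, lost NFIL3 in ULU vs control in 2, and added a call in 3, while 11 values, all in ULU vs UL, got no adjusted p-value from DESeq2. No called value changed sign, while 32 values that were not called had another sign than in edgeR on all libraries, all but 1 of them from a log2(fold change) under 0.3 in size. Library totals moved the median log2(fold change) of all genes in ULU vs control from -0.03 to -0.21. The share of higher genes among those that passed went from 66.7% to 15.6%. The calls of TEF and CIART gained there, and that of NFIL3 lost there, thus stand on a shifted centre. Whether the shift accounts for them was not tested. The number of all genes that passed in ULU vs control was 423 in edgeR on all libraries, 111 on the 2 diets alone, 228 with no filter, 8 with the mitochondrial covariate, and 825 and 1069 in DESeq2 on the 2 diets and on all libraries. In UL vs control DESeq2 called 149 and 152 genes where edgeR called 0, and in ULU vs UL 246 and 252 where edgeR called 5. DBP had 30 to 93 reads per library and BHLHE41 had 25 to 165. Their 95% intervals for ULU vs control, -0.56 to 0.56 and -1.20 to 0.38, span the differences that the data allow, and both include 0.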
